A study of Mus musculus with 14 samples.

Results

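The kidney transcriptome of WT mice with diabetes was compared with that of WT mice without it, in 7 of the 14 mice of the series. The members were chosen from the sample titles, with the diet and disease labels in agreement, and no measured value was used. All 7 were male C57BL/6J mice. The 4 WT diabetic mice received a high-fat diet, with fat at 60% of calories, for 4 weeks and then streptozotocin (STZ) at 60 mg/kg on 5 successive days. The 3 WT control mice received chow with fat at 10% of calories and the citrate vehicle. The other 7 mice lack *Cfb*, the gene of complement factor B, which was intact in the mice described here. Diet and STZ were given to the same mice, so their contributions cannot be told apart. The treatment label of the control mice reads as that of diabetic mice, whereas their titles, diet, and disease labels do not. A time of 34 weeks is labelled with no starting point, and the labels name the tissue as kidney without saying which portion was taken. The paper places the sacrifice of the mice months after STZ.

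STZ enters cells through the glucose transporter GLUT2 and destroys the insulin-producing beta cells of the pancreas, so that blood glucose rises. The kidney filters this glucose, and the proximal tubule takes it back through the sodium-glucose cotransporters SGLT2 (*Slc5a2*) and SGLT1 (*Slc5a1*). In diabetic kidney disease, glomerular damage is accompanied by tubular injury, infiltration by macrophages, and deposition of extracellular matrix. Injured proximal tubule cells are known to lose transporters and metabolic enzymes and to express *Havcr1* (KIM-1), *Lcn2* (NGAL), and keratins.

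The values are fragments normalized to transcript length and to sequencing depth (FPKM) for 21878 genes. How many reads each mouse had is unknown. The step between low values gave a relative depth of 0.959 to 1.09 in WT diabetic mice and of 1.01 to 1.06 in WT control mice. Genes that reached 1 FPKM in 3 or more of the 7 mice, 11602 in number, were tested with limma on log2(FPKM + 0.1). A log2 difference below is the mean of the diabetic mice minus that of the control mice on this scale, with its standard error (SE). The pseudocount of 0.1 shrinks the difference of genes near or under 0.1 FPKM. An FPKM value after ± is an SD, over 4 diabetic or 3 control mice. Median correlations within the groups were 0.976 to 0.983. Nothing in the labels says that the mice came from separate litters or cages. The smallest two-sided exact permutation p that 4 mice against 3 allow is 0.0571, so that tests of single genes by permutation could not pass 0.05.

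The FPKM values of the groups differed in how they were spread over genes. *Kap*, the kidney androgen-regulated protein, was the most abundant transcript of each WT control mouse and took 10.2% to 13.9% of the summed FPKM there, whereas the most abundant transcript of a WT diabetic mouse took 3.07% to 4.601%. The 10 most abundant genes took 10.95% to 12.8% of the sum in WT diabetic mice and 18.97% to 22.98% in WT control animals. The number of genes at 1 FPKM or more was 11428 to 11743 in the former and 10334 to 10804 in the latter group. The median log2 difference of all tested genes was 0.21 on the deposited scale, 0.52 after conversion to TPM, 0.07 after median-ratio scaling, and -0.05 after quantile normalization. The changes below are therefore read against this shift.

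Of the 11602 tested genes, 3342 were higher (28.8%) and 1108 were lower (9.55%) in WT diabetic mice at a Benjamini-Hochberg adjusted p under 0.05 by limma. With a fold change over 2 or under 0.5 in addition, 1440 were higher (12.4%) and 213 were lower (1.84%). Higher genes were 75.1% of the calls at the adjusted p alone, 92.9% on the TPM scale, 60.1% after median-ratio scaling, and 44.7% after quantile normalization. With the fold limit these shares were 87.1%, 95.0%, 80.0%, and 64.3%. Of the tested genes, 618 were below 1 FPKM in every WT control mouse and passed the filter only through diabetic mice, and 481 of these were among the 1440. The values of the groups did not overlap for 5214 genes (44.9% of those tested). The deposited scale is used in what follows, and a list of genes is described by how many of its tested members passed the adjusted p, beside these shares of all genes. Where the text does not say how many members of a list were below 1 FPKM in every control mouse, the number was 0 to 3.

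**Figure D1:**
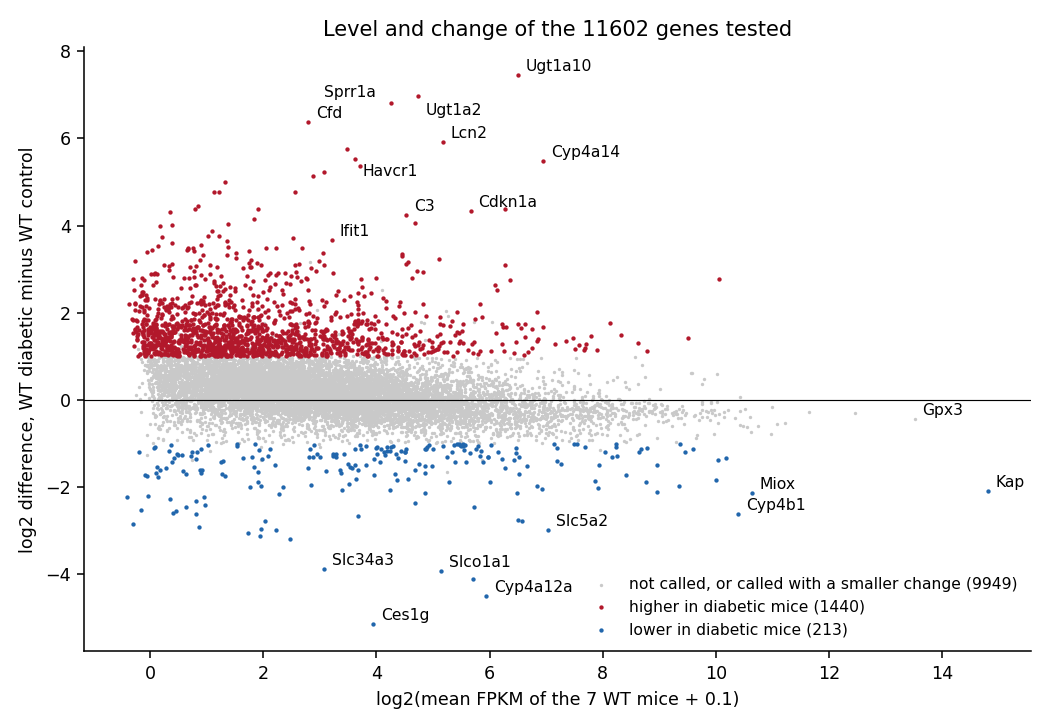
Mean level of each tested gene over the 7 WT mice (x axis, log2 of FPKM + 0.1) against its log2 difference between 4 WT diabetic and 3 WT control mice (y axis). Red points are the 1440 genes called higher and blue points the 213 called lower with a fold change over 2 or under 0.5, grey points are the other 9949 genes, and the most abundant transcripts lie below 0.

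The largest rises that met the rule for naming were in 2 isoforms of the UDP-glucuronosyltransferase 1a locus, which attach glucuronic acid to bilirubin, steroids, and drugs. *Ugt1a10* (chr1:88055411-88220002, GRCm38.p6) was at 78.6, 177, 199, and 176 FPKM in WT diabetic mice and at 3.26, 1.17, and 0.0421 FPKM in WT control mice. The groups were far apart, with a log2 difference of 7.46 (SE 0.86, adjusted p = 2.00e-04 by limma). *Ugt1a2* (chr1:88200611-88220002) was at 25.4, 99.997, 15.1, and 43.4 FPKM in WT diabetic mice against 0.173 to 0.199 FPKM in WT control mice. Isoforms of this locus share their last exons, so the division of fragments between them is uncertain. *Cyp4a14*, a cytochrome P450 that hydroxylates the end of fatty acid chains, was at 154, 211, 228, and 250.1 FPKM in WT diabetic mice and at 10.5, 4.97, and 1.76 FPKM in WT control mice. Its log2 difference was 5.48 (SE 0.47). *Gc*, the vitamin D-binding protein of plasma, was at 81.9, 145, 118, and 178 FPKM in WT diabetic mice against 9.14, 7.99, and 2.78 FPKM in WT control mice. *Igfbp2*, which binds insulin-like growth factors, was at 14.3 ± 5.77 FPKM against 0.271 ± 0.0687 FPKM. *Slpi*, an inhibitor of leukocyte proteases, was at 9.89 ± 6.85 FPKM against 0.2996 ± 0.338 FPKM, with a log2 difference of 4.76 (SE 0.74).

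The 15 largest falls that met the rule for naming included enzymes, carriers, and secreted proteins. *Ces1g* (chr8:93302369-93337209), a carboxylesterase that hydrolyses lipid esters, was at 1.24, 1.002, 0.541, and 0.689 FPKM in WT diabetic mice and at 28.1, 23.7, and 51.8 FPKM in WT control mice. The log2 difference was -5.14 (SE 0.31, adjusted p = 8.16e-06 by limma), the largest fall of all tested genes. Its neighbour *Ces1e* was at 11.8 ± 2.63 FPKM against 51.9 ± 6.998 FPKM. These esterase genes are near-identical copies, and reads could be divided between them. *Lpl*, the lipase that releases fatty acids from plasma lipoproteins, was at 34.6, 17.9, 28.3, and 25.1 FPKM in WT diabetic mice and at 141, 199.9, and 188 FPKM in WT control mice. *Apom*, a lipoprotein component that carries sphingosine 1-phosphate, was at 36.6 ± 9.11 FPKM against 161 ± 44.0 FPKM. *Azgp1*, a secreted glycoprotein linked to lipid mobilization, was at 27.5 ± 7.04 FPKM against 185 ± 33.3 FPKM. *Pzp*, a plasma protease inhibitor, was at 3.78 ± 0.805 FPKM against 24.4 ± 6.06 FPKM, and *Anxa13*, a calcium-dependent membrane-binding protein, at 1.17 ± 0.407 FPKM against 11.2 ± 2.85 FPKM.

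**Figure D2:**
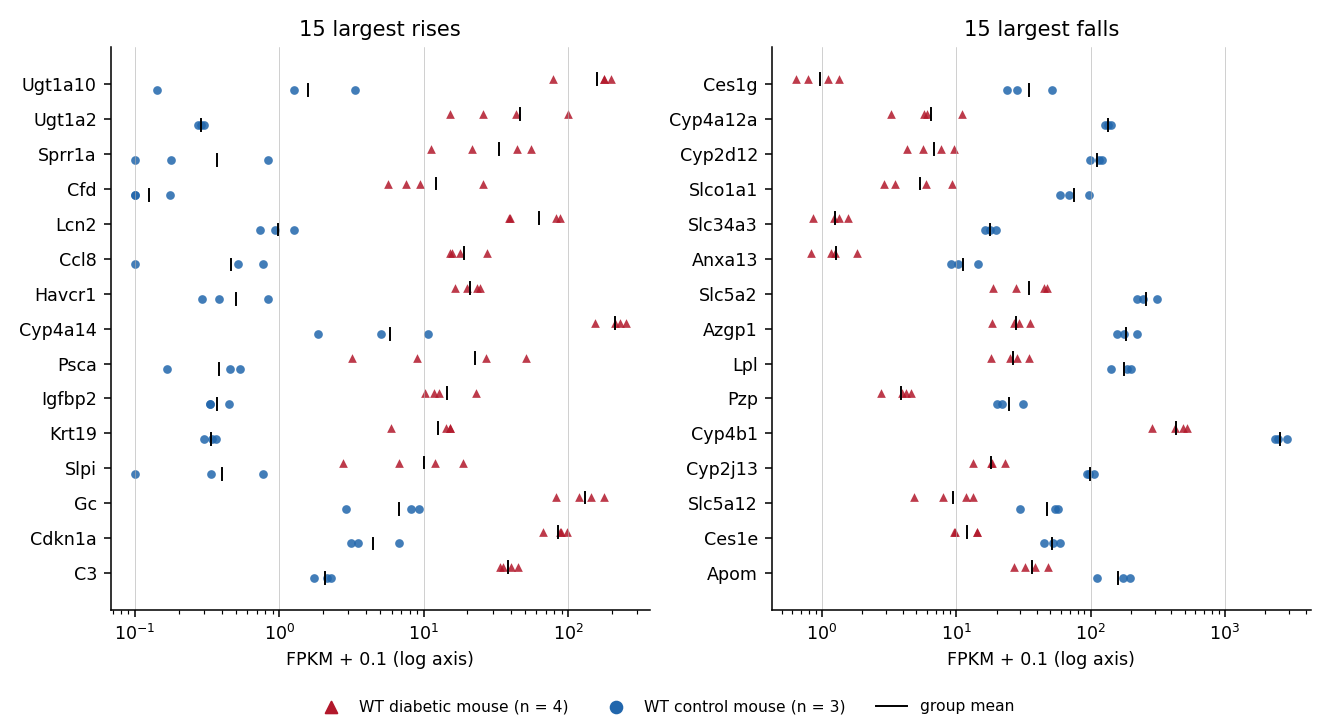
FPKM + 0.1 on a log axis of the 15 largest rises (left) and the 15 largest falls (right) in each of 4 WT diabetic mice (red triangles) and 3 WT control mice (blue circles), with vertical bars at the group means. In none of these 30 genes did the groups overlap, which the rule that chose them required, and the diabetic mice spread most in *Psca*, at 3.10 to 51.3 FPKM.

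Most abundant transcripts were lower or did not pass the test. *Kap* (chr6:133849855-133853667) was at 9698, 9732, 16015, and 12640 FPKM in WT diabetic mice and at 41536, 67836, and 43498 FPKM in WT control mice. Its log2 difference was -2.08 (SE 0.35, adjusted p = 0.0016 by limma), but after quantile normalization, which sets the top gene of every mouse to the same value, it was -0.49 and did not pass, and without the filter on low values it did not pass either. *Miox*, which begins the breakdown of myo-inositol in the proximal tubule, was at 757, 759, 514, and 570 FPKM against 2110, 3188, and 3242 FPKM. *Fxyd2*, the gamma subunit of the sodium pump, was at 1507 ± 121 FPKM against 2676 ± 776 FPKM. Along with *Tpt1*, at 1392 ± 103 FPKM against 2128 ± 415 FPKM, it fell on the deposited scale and lost the call after quantile normalization. The glutathione peroxidase *Gpx3* was at 10117 ± 602 FPKM against 13799 ± 1905 FPKM (log2 difference -0.44, SE 0.25). It did not pass the test, nor did *Gpx1*, *Fth1*, *Ftl1*, or *Eef1a1*, whose log2 differences were -0.55, -0.30, -0.28, and -0.17. Each of these 5 turned above 0 on the TPM scale or after quantile normalization.

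Markers of the injured tubule rose almost throughout. Of 30 such genes tested, 28 were higher and 0 were lower, 27 of them by more than 2-fold, and their median log2 difference was 2.23 against 0.21 for all tested genes. Of the 30, 8 were below 1 FPKM in every control mouse. *Havcr1* (chr11:46739822-46779578), the phosphatidylserine receptor KIM-1 of injured proximal tubule, was at 23.4, 16.2, 19.9, and 24.4 FPKM in WT diabetic mice and at 0.281, 0.731, and 0.189 FPKM in WT control mice. Its log2 difference was 5.53 (SE 0.32, adjusted p = 6.47e-06 by limma). *Lcn2* (chr2:32384637-32387739), the iron-siderophore carrier NGAL, was at 39.7, 82.6, 38.8, and 88.2 FPKM against 0.636, 1.17, and 0.838 FPKM. Diabetic mice 2 and 4 were above diabetic mice 1 and 3, and the lowest of them was far above every control mouse. *Spp1*, the secreted phosphoprotein osteopontin, was the most abundant gene of the list and was at 1462, 1566, 1406, and 2249.8 FPKM against 229, 242, and 243 FPKM. *Vcam1*, an adhesion molecule of leukocytes that also marks proximal tubule after failed repair, was at 12.4 ± 2.35 FPKM against 2.53 ± 0.882 FPKM. The 2 members that did not pass were *Itgb6* and *Hbegf*.

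The keratins of simple epithelia were among the rises, and here the urinary lining has to be considered beside the tubule. *Krt20* was at 3.85, 3.73, 3.68, and 4.08 FPKM in WT diabetic mice against 0.0233 to 0.0647 FPKM in WT control mice. *Krt19* was at 5.84, 14.98, 15.1, and 14.1 FPKM against 0.200 to 0.264 FPKM, with diabetic mouse 1 below the others. Both are also made by urothelium, which lines the renal pelvis. Of 20 urothelial genes in the files 11 were tested, of which 10 were higher and 0 lower, and 9 of the 11 were below 1 FPKM in every control mouse. Their summed level was 62.2, 221, 204, and 105 FPKM in diabetic mice 1 to 4 and 44.5 to 54.7 FPKM in WT control mice. The water channel *Aqp3*, which collecting duct also makes, held most of the sum in the control mice and did not pass the test. Uroplakin *Upk1a*, which forms the plaques of the urothelial surface, was at 0.437, 11.9, 15.3, and 3.53 FPKM against 0.228 to 0.399 FPKM, and *Upk3a* was at 0, 9.35, 10.2, and 4.56 FPKM against 0, 0.218, and 0 FPKM. Diabetic mouse 1 was near the control mice in both. The call of *Upk1a* was lost without control mouse 2 or 3 and that of *Upk3a* without any single mouse but diabetic mouse 1, and after quantile normalization 3 of the 11 genes were higher.

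In diabetic mouse 1, where uroplakins were at or near 0, *Havcr1*, *Krt20*, *Spp1*, and *Lcn2* were at 23.4, 3.85, 1462, and 39.7 FPKM, each above at least one other diabetic mouse. Other members of the injured tubule list were lowest of the diabetic mice there. *Krt18*, a keratin of simple epithelia, was at 23.7 FPKM in diabetic mouse 1 and at 28.7 to 40.7 FPKM in the other 3. *Krt8*, *Krt19*, *S100a6*, and *S100a11* were also lowest in this mouse. *Psca*, a surface antigen abundant in urothelium, was at 3.10, 51.3, 26.8, and 8.90 FPKM in WT diabetic mice against 0.0652 to 0.431 FPKM in WT control mice. *Sprr1a*, a cornified envelope precursor induced in stressed epithelia, was at 11.1, 44.1, 55.1, and 21.4 FPKM against 0, 0.737, and 0.0781 FPKM. Both are members of the urothelial list and so part of its sum, and both were lowest in diabetic mouse 1. The part of urothelium in these rises was not tested.

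**Figure D3:**
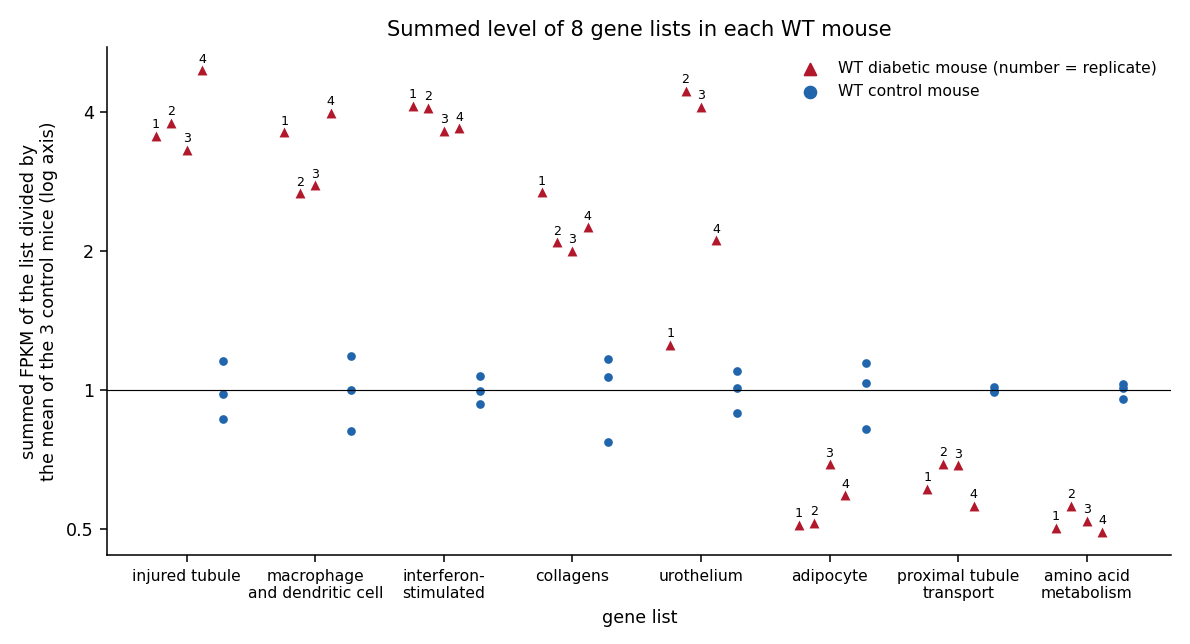
Summed FPKM of 8 gene lists in each WT mouse, divided by the mean of the 3 control mice and drawn on a log axis, with diabetic mice as red triangles numbered by replicate and control mice as blue circles. The urothelium sum was 62.2 FPKM in diabetic mouse 1 and 221 FPKM in diabetic mouse 2. The injured tubule sum was 3133 and 3341 FPKM in these mice, with *Spp1* alone at 1462 and 1566 FPKM.

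Targets of the tumour suppressor p53 and genes of cell division rose in the same mice. Of 28 tested p53 targets and senescence genes 20 were higher and 0 lower, with a median log2 difference of 1.57, and 5 of the 28 were below 1 FPKM in every control mouse. *Cdkn1a* (chr17:29090979-29100722) encodes p21, the inhibitor of cyclin-dependent kinases through which p53 halts the cell cycle. It was at 97.8, 88.1, 66.6, and 88.9 FPKM in WT diabetic mice and at 6.61, 3.39, and 3.03 FPKM in WT control mice (log2 difference 4.34, SE 0.25, adjusted p = 6.42e-06 by limma). *Eda2r*, a p53-induced receptor of the tumour necrosis factor family, was at 3.14, 2.95, 2.35, and 3.37 FPKM against 0.0888, 0.0200, and 0.0186 FPKM. *Phlda3*, a p53-induced repressor of Akt, was at 35.7 ± 6.69 FPKM against 3.497 ± 0.349 FPKM, and the stress cytokine *Gdf15* at 41.6 ± 3.01 FPKM against 5.34 ± 1.20 FPKM. *Psrc1*, which binds the mitotic spindle and responds to p53, was at 3.73 ± 1.58 FPKM against 0.185 ± 0.129 FPKM. *Perp*, *Fas*, *Sesn2*, and *Bax* were among the 8 genes that did not pass.

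Of 44 cell cycle genes in the files, 17 did not reach the level for testing, 20 of the other 27 were higher and 0 lower, and 11 of the 27 were below 1 FPKM in every control mouse. *Mki67*, the proliferation antigen, was at 1.02, 0.809, 1.07, and 1.34 FPKM in WT diabetic mice and at 0.193, 0.150, and 0.107 FPKM in WT control mice. *Top2a* and *Cdk1*, which untangle DNA and drive entry into mitosis, were at 1.37 ± 0.154 and 1.29 ± 0.332 FPKM against 0.193 ± 0.0555 and 0.149 ± 0.0662 FPKM. *Ccnd1*, cyclin D1, was far more abundant, at 105, 109, 99.6, and 110 FPKM against 49.1, 25.4, and 29.7 FPKM.

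Of 40 tested carriers and receptors of the proximal tubule, 19 were lower and 4 higher. Their median log2 difference of -0.43 stayed below 0 on every scale (-0.57 to -0.12). In RNA from bulk tissue, fewer cells of a type and less RNA in each cell cannot be told apart. *Slc5a2* (chr7:128265683-128272430), the SGLT2 of the early proximal tubule, was at 47.5, 44.7, 27.6, and 18.6 FPKM in WT diabetic mice and at 223, 244, and 313 FPKM in WT control mice. Its log2 difference was -2.99 (SE 0.30, adjusted p = 9.97e-05 by limma). *Slc5a1*, the SGLT1 further along the tubule, moved the other way, at 24.2, 27.3, 22.3, and 25.6 FPKM against 19.6, 12.8, and 13.6 FPKM (log2 difference 0.72, SE 0.16). The basolateral glucose carrier *Slc2a2* (GLUT2), at 39.6 ± 7.83 FPKM against 46.7 ± 7.29 FPKM, did not pass, whereas *Slc2a1* (GLUT1) rose to 25.6 ± 4.69 FPKM from 16.1 ± 2.001 FPKM. *Slc5a12*, which takes up lactate, fell to 9.39 ± 3.88 FPKM from 47.0 ± 15.05 FPKM. The other genes that rose were *Abcc4*, an exporter of organic anions, *Slc5a10*, a fructose and mannose carrier, and *Slco4c1*, which was at 6.73 ± 2.64 FPKM against 1.98 ± 2.85 FPKM, overlapped between the groups, and lost its call when any of diabetic mice 1 to 3 or control mice 2 and 3 was left out. *Lrp2* (megalin), the endocytic receptor for filtered protein, was at 88.6, 105, 82.5, and 65.3 FPKM against 136, 79.9, and 109 FPKM and did not pass.

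The phosphate carriers of the proximal tubule fell, and a carrier normally found in other epithelia rose. *Slc34a3* (chr2:25228897-25234270), the NaPi-IIc cotransporter, was at 1.12, 1.45, 1.24, and 0.752 FPKM in WT diabetic mice and at 16.2, 17.6, and 19.7 FPKM in WT control mice (log2 difference -3.88, SE 0.20). *Slc34a1* (NaPi-IIa), the main renal phosphate carrier, was at 811, 720.1, 642, and 637 FPKM against 1739.7, 1571, and 2017 FPKM. *Slc34a2* (NaPi-IIb), known from intestine and lung, was at 1.79, 3.73, 2.40, and 3.45 FPKM against 0.420, 0.352, and 0.149 FPKM. *Stc1*, the hormone stanniocalcin, rose to 5.18 ± 1.94 FPKM from 0.803 ± 0.341 FPKM. Of 21 calcium, phosphate, and vitamin D genes tested, 7 were higher, a share close to that of all genes, and 5 lower. Besides the 2 phosphate carriers, the lower genes were the parathyroid hormone receptor *Pth1r*, the vitamin D receptor *Vdr*, and *Slc9a3r1*, a scaffold that holds NaPi-IIa at the membrane.

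Of 36 transcription factors of tubule cells 11 were higher, a share close to that of all genes, and 7 lower. On the TPM scale 18 were higher and 0 lower, whereas after median-ratio scaling 8 were higher and 9 lower. *Hnf4a*, which drives proximal tubule genes, was at 111, 110, 120.2, and 82.6 FPKM in WT diabetic mice and at 198, 157, and 178 FPKM in WT control mice (log2 difference -0.75, SE 0.15), and did not pass on the TPM scale. *Maf*, *Nr1h4*, *Klf15*, and *Esrra* were among the other lower genes. *Sox9*, which is switched on in regenerating tubule, was at 2.36, 1.41, 1.16, and 2.35 FPKM against 0.184, 0.0772, and 0.0968 FPKM. *Sox4*, another factor of developing and injured epithelium, was at 8.18 ± 1.63 FPKM against 1.25 ± 0.546 FPKM, and *Ehf*, a factor of distal epithelia, at 8.55 ± 3.41 FPKM against 2.34 ± 0.435 FPKM.

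Of 28 genes of glucose, gluconeogenesis, and fructose metabolism 10 were higher and 6 lower. The higher genes included some glycolytic enzymes and also *Pck2* and *Fbp2* of gluconeogenesis. Other glycolytic genes of the list, *Gapdh*, *Eno1*, *Pgk1*, *Pfkm*, *Ldha*, and *Ldhb*, did not pass. *Gapdh* was listed at only 1.95 to 4.32 FPKM, where *Pgk1* was at 217 to 296 FPKM, and the reason was not tested. *Pfkp*, the platelet-type phosphofructokinase, was at 17.2, 21.2, 19.0, and 17.6 FPKM in WT diabetic mice and at 5.199, 4.20, and 4.70 FPKM in WT control mice, and *Hk1*, hexokinase 1, was at 23.2 ± 2.94 FPKM against 10.0 ± 0.627 FPKM. *Txnip*, a glucose-responsive inhibitor of thioredoxin, was at 170, 135, 111, and 191 FPKM against 70.5, 79.0, and 79.8 FPKM. *G6pc*, which frees glucose from its phosphate in the last step of gluconeogenesis, was at 92.8, 118, 69.2, and 70.8 FPKM against 210.2, 206, and 304 FPKM (log2 difference -1.46, SE 0.21). *Pck1*, which commits carbon to gluconeogenesis, was at 377, 474, 456, and 629 FPKM against 549, 255, and 264 FPKM. These ranges overlapped and the test was not passed, whereas without control mouse 1 it was, at a log2 difference of 0.88.

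Genes of fatty acid oxidation and ketogenesis did not move together. Of 50 tested, 16 were higher and 6 lower, shares close to those of all genes, and the median log2 difference was 0.14. Targets of the lipid-sensing receptor PPAR alpha were among the rises. *Pdk4*, which shuts pyruvate out of mitochondria, was at 19.99, 27.7, 22.1, and 21.7 FPKM against 3.76, 4.16, and 4.21 FPKM. *Cyp4a14*, described above, is another such target. Core genes of beta-oxidation were split. *Hadha*, *Cpt2*, *Cpt1b*, and *Slc25a20* were among the higher genes and *Acads*, *Hadh*, *Echs1*, and *Acaa1a* among the lower. *Acadm*, *Acadl*, and *Acadvl* did not pass.

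Of 41 genes of cholesterol and fatty acid synthesis 13 were lower and 3 higher. The median was -0.23. On the TPM scale 2 were lower and 6 higher, with a median of 0.08, whereas 17 were lower after median-ratio scaling and 22 after quantile normalization, with medians of -0.37 and -0.44. *Me1*, the malic enzyme that supplies NADPH, was at 93.9, 103, 110, and 100.1 FPKM in WT diabetic mice and at 184, 155, and 149.7 FPKM in WT control mice. *Hmgcs1*, the first enzyme of the cholesterol pathway here, was at 115 ± 13.0 FPKM against 138 ± 40.9 FPKM and did not pass. The genes that rose were *Elovl6*, which elongates fatty acids, at 4.87 ± 1.48 FPKM against 1.88 ± 0.382 FPKM, and also *Acacb* and *Elovl7*.

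Of 49 tested genes of amino acid metabolism, 23 were lower and 6 higher, and 11 of the falls were larger than 2-fold. On the TPM scale 17 were lower and 11 higher. The median log2 difference was -0.38 and stayed below 0 on every scale (-0.52 to -0.07). *Acy3*, which removes acetyl groups from aromatic amino acids, was at 428, 461, 525, and 536 FPKM in WT diabetic mice and at 1563, 2074, and 1612 FPKM in WT control mice. *Ass1*, through which the kidney makes arginine, was at 641, 704, 566, and 576 FPKM against 1404, 1609, and 1839 FPKM. *Afmid*, of the kynurenine pathway, was at 5.08 ± 0.461 FPKM against 19.7 ± 2.42 FPKM. *Kynu*, which acts further down the same pathway, rose to 5.50 ± 1.11 FPKM from 1.42 ± 0.499 FPKM. *Arg2*, mitochondrial arginase, was at 5.74, 14.5, 15.4, and 14.8 FPKM against 2.24, 1.88, and 0.382 FPKM.

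Of 82 nuclear genes of oxidative phosphorylation, 2 were higher and 10 lower, with a median of -0.28. On the TPM scale 6 were higher and 0 lower, with a median of 0.03. After median-ratio scaling 2 were higher and 15 lower, with a median of -0.43, and after quantile normalization 2 were higher and 5 lower. *Atp5b*, the catalytic beta subunit of ATP synthase, was at 1275 ± 86.3 FPKM against 1520.2 ± 125 FPKM and did not pass. The rises were *Cox6b2*, an isoform known from testis, at 11.2 ± 4.57 FPKM against 4.34 ± 0.965 FPKM, and *Cox8b*, an isoform of muscle and brown fat, at 0.304, 1.53, 4.45, and 2.19 FPKM where it was listed at 0 in each control mouse. Of 82 ribosomal protein genes 0 were higher and *Rpl22l1* was lower. *Rpl41*, *Rps29*, and *Rplp1* had log2 differences of -0.20, -0.27, and -0.24, and these signs and the median of -0.19 turned on the TPM scale and after quantile normalization. Genes encoded by mitochondria were not analysed here.

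The cytochromes P450 moved in both directions, with 12 of 29 tested genes higher and 9 lower, and the median log2 difference of -0.16 turned to 0.15 on the TPM scale. *Cyp4a12a* (chr4:115299046-115332815), the fatty acid hydroxylase typical of male mouse kidney, was at 10.8, 5.94, 5.60, and 3.17 FPKM in WT diabetic mice and at 134, 142, and 127 FPKM in WT control mice (log2 difference -4.50, SE 0.32, adjusted p = 1.82e-05 by limma). It fell while *Cyp4a14*, of the same subfamily, rose, but *Cyp4a* genes are close copies between which fragments may be divided. *Cyp4b1* was the most abundant P450 of the control mice, at 2469, 2348, and 2877 FPKM, and was at 484, 425, 521, and 284 FPKM in WT diabetic mice. *Cyp2d12* was at 6.69 ± 2.31 FPKM against 112 ± 11.4 FPKM, *Cyp2j13* at 18.1 ± 4.03 FPKM against 98.8 ± 6.09 FPKM, and *Cyp2e1*, which oxidizes ethanol and acetone, at 209 ± 53.3 FPKM against 879.9 ± 47.7 FPKM. Of 43 conjugating enzymes 13 were higher, a share close to that of all genes, and 8 lower. Apart from the *Ugt1a* genes, *Gsta1*, a glutathione transferase, was at 3.85, 8.47, 3.92, and 5.03 FPKM against 0.548, 0.327, and 0.608 FPKM.

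Genes that are higher in male than in female mouse kidney were lower in 15 and higher in 3 of 26, 12 of the falls exceeded 2-fold, and the median was -0.96. All 7 mice were male. *Slco1a1*, an androgen-dependent carrier of organic anions, was at 5.83, 3.40, 9.14, and 2.77 FPKM in WT diabetic mice and at 96.5, 69.0, and 58.9 FPKM in WT control mice. *Odc1*, the first enzyme of polyamine synthesis and long known as androgen-responsive in mouse kidney, was at 125, 113, 91.7, and 89.0 FPKM against 471, 390, and 400 FPKM. *Kap*, *Cyp4a12a*, *Cyp2j13*, and *Cyp2e1* also belong to this list. The rises were *Aoc1*, which degrades polyamine precursors and histamine, at 5.41 ± 1.18 FPKM against 0.580 ± 0.253 FPKM, and *Ugt2b37* and *Hao2*. Genes higher in females were split, with 5 of 14 higher and 4 lower. *Prlr*, the prolactin receptor, was at 5.15, 10.6, 4.03, and 8.87 FPKM against 2.09, 1.02, and 0.228 FPKM. *Cyp4a14*, *Abcc3*, *Kynu*, and *Gsta4* were the other rises, and *Cyp2d12*, *Slc22a7*, *Cyp2a5*, and *Cyp2a4* the falls.

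**Figure D4:**
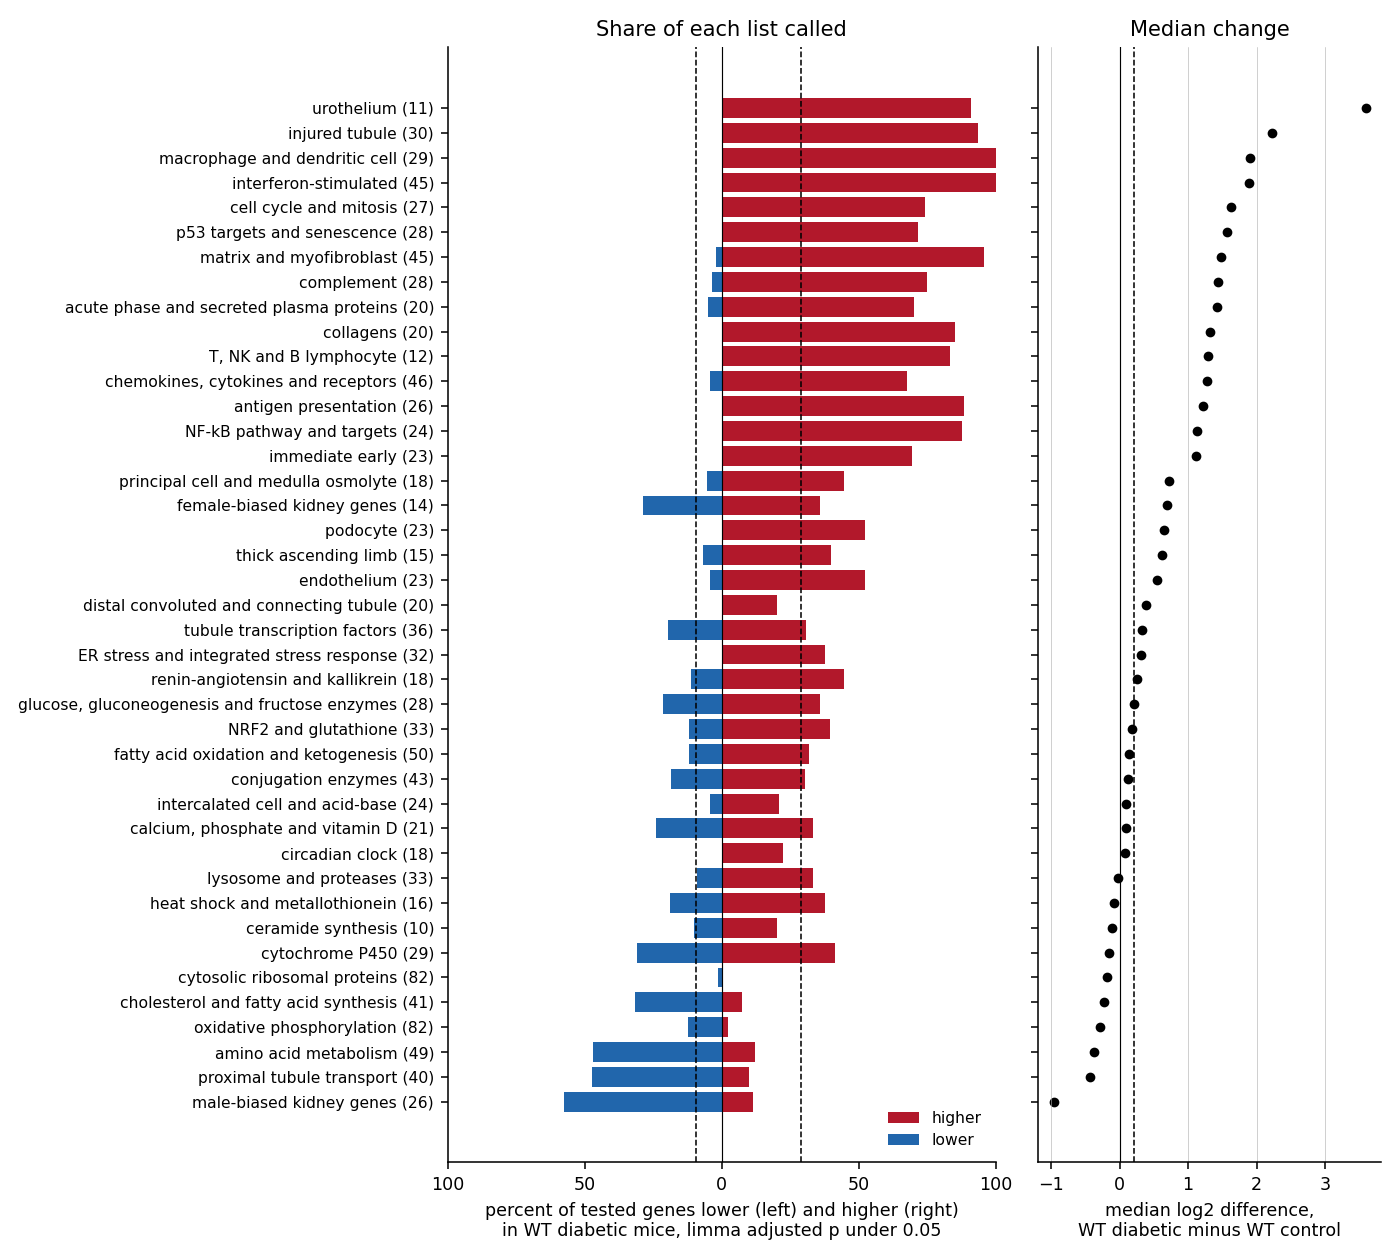
Percent of the tested genes of each list that were lower (blue, left) or higher (red, right) in WT diabetic than in WT control mice at an adjusted p under 0.05 by limma, with the number tested in parentheses, and the median log2 difference of the list (right). Dashed lines mark all tested genes, at 28.8% higher, 9.55% lower, and a median of 0.21.

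Complement genes rose in 21 of 28 and fell in 1 (*C8g*), with a median log2 difference of 1.44, and 5 of the 28 were below 1 FPKM in every control mouse. Complement is a cascade of plasma proteins in which C3 is split by convertases of the classical, lectin, and alternative pathways, and factor B and factor D (*Cfd*) build the alternative one. *C3* (chr17:57203967-57228136), the common substrate, was at 35.6, 33.7, 40.01, and 44.8 FPKM in WT diabetic mice and at 2.03, 2.19, and 1.64 FPKM in WT control mice. The spread within each group was small against the log2 difference of 4.23 (SE 0.14, adjusted p = 6.72e-07 by limma). *C1qa*, a chain of the classical pathway's recognition molecule that macrophages make, was at 68.4, 47.8, 43.9, and 72.9 FPKM against 12.3, 19.6, and 17.4 FPKM, and *C3ar1*, the receptor of the fragment C3a, at 3.38 ± 0.652 FPKM against 0.466 ± 0.0820 FPKM. *Cfb* was at 78.8, 81.9, 72.7, and 56.7 FPKM against 131, 62.2, and 126 FPKM. It did not pass (log2 difference -0.49, SE 0.25), and control mouse 2 stood apart within its group. Without that mouse the log2 difference was -0.84 and passed the test.

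*Cfd* (chr10:79890853-79892655) was at 9.39, 5.56, 25.5, and 7.44 FPKM in WT diabetic mice and at 0, 0.0755, and 0 FPKM in WT control mice. Adipocytes are a main source of this protease. The adipocyte hormone *Adipoq* was at 0.623, 1.02, 3.72, and 0.649 FPKM in the same mice and at 0, 0.0408, and 0 FPKM in the control mice, and the lipid droplet coat *Plin1* was at 0.0792 to 0.442 FPKM and listed at 0 in each control mouse. Diabetic mouse 3 was highest in each of these genes. Of 16 adipocyte genes 7 were tested, of which *Cfd* and *Fabp4* were higher and *Lpl* and *Car3* lower, and the summed level was 138 to 186 FPKM in WT diabetic mice and 222 to 307 FPKM in WT control mice, with *Lpl* the largest part of it in the latter. The part of adipocytes in the rise of *Cfd* was not tested.

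Chemokines rose in number. Of 131 chemokine, cytokine, and receptor genes in the files 46 were tested, 31 of which were higher and 2 (*Il15* and *Il34*) lower, and 13 of the 46 were below 1 FPKM in every control mouse. *Ccl8* was at 27.3, 17.8, 15.7, and 15.1 FPKM in WT diabetic mice and at 0.413, 0.669, and 0 FPKM in WT control mice. *Ccl12* was at 9.47, 15.2, 5.87, and 7.30 FPKM against 0.529, 0.520, and 0.722 FPKM. Both belong to the family of monocyte chemoattractant proteins. *Cxcl1*, which attracts neutrophils, was at 6.22 ± 2.18 FPKM against 0.215 ± 0.141 FPKM. *Tnf*, at 0.573 ± 0.168 FPKM against 0.102 ± 0.0348 FPKM, and *Il1b*, at 0.465 ± 0.158 FPKM against 0.423 ± 0.157 FPKM, were under the level for testing. Of 24 genes of the NF-kB pathway and its targets, 21 were higher and 0 lower, 13 of them by more than 2-fold, and *Lcn2*, *C3*, *Cxcl10*, and *Vcam1* led the list.

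Macrophage and dendritic cell genes rose in 29 of 29 tested, 27 by more than 2-fold, and 8 of the 29 were below 1 FPKM in every control mouse. Their summed level was 1072, 790.5, 823, and 1182 FPKM in WT diabetic mice and 241 to 352 FPKM in WT control mice. *Lyz2*, lysozyme of myeloid cells, was at 129, 121, 113, and 152 FPKM against 18.6, 21.6, and 16.6 FPKM. *Siglec1*, a sialic acid receptor of resident and interferon-exposed macrophages, was at 2.42, 1.81, 1.21, and 1.37 FPKM against 0.0983, 0.0232, and 0.0430 FPKM. *Trem2*, a lipid-sensing receptor of macrophages, was at 2.48 ± 0.332 FPKM against 0.168 ± 0.145 FPKM, and the IgG receptor *Fcgr1* at 2.98 ± 0.439 FPKM against 0.366 ± 0.1603 FPKM.

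Neutrophil genes were low. Of 15 in the files 2 were tested, *S100a8* at 1.21 ± 0.953 FPKM against 1.51 ± 1.10 FPKM and *S100a9* at 1.35 ± 1.10 FPKM against 1.37 ± 0.408 FPKM, and neither passed. Among lymphocyte genes, 12 of 36 were tested and 10 were higher, 6 of the 12 being below 1 FPKM in every control mouse, and 11 were higher on the TPM scale and 3 after quantile normalization. The leading gene was *Jchain*, the joining chain of secreted antibodies, at 33.9, 18.9, 69.9, and 48.3 FPKM in WT diabetic mice and at 0.737, 3.15, and 4.42 FPKM in WT control mice. *Cd4* was at 1.33 ± 0.342 FPKM against 0.190 ± 0.0615 FPKM, whereas *Sdc1*, which plasma cells share with epithelium, was at 9.90 ± 1.81 FPKM against 2.75 ± 0.601 FPKM.

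Genes of antigen presentation rose in 23 of 26, with a median log2 difference of 1.21. Of the 26, 4 were below 1 FPKM in every control mouse, among them *Nlrc5*, *H2-T24*, and *H2-Q2*. *Cd74*, the invariant chain of MHC class II, was at 500.2, 337, 401, and 526 FPKM in WT diabetic mice and at 119, 195, and 156 FPKM in WT control mice. *Nlrc5*, the activator of MHC class I genes, was at 2.59, 1.68, 2.15, and 2.25 FPKM against 0.609, 0.354, and 0.440 FPKM. The class I genes *H2-T24* and *H2-Q2* had log2 differences of 1.87 (SE 0.19) and 1.73 (SE 0.23), although class I genes are near copies whose fragments are hard to separate and *H2-Q2* lost its call after quantile normalization. *H2-T23*, *H2-T22*, and *H2-Oa* did not pass.

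Interferon-stimulated genes rose in 45 of 45 tested, 39 by more than 2-fold, with a median log2 difference of 1.89. The groups did not overlap in 44 of them, and in 44.9% of all tested genes. Of the 45, 6 were below 1 FPKM in every control mouse, among them *Oas2* and *Oasl1*. Type I interferons act through a promoter element of paired GAAA repeats, the interferon-stimulated response element, whereas interferon gamma acts mainly through another, and the list holds targets of both. The promoters of 3 of these genes are shown because the members moved together and these promoters hold matches to the element. They span the 250 bases before and the 50 bases after the transcription start, from RefSeq on GRCm38.p6, 5′ to 3′ on the strand of the gene, with matches to GAAANNGAAA on either strand in capitals (N is any base). *Ifit1* lies on the plus strand at chr19:34640639-34640938 and holds 2 matches. *Isg15* lies on the minus strand at chr4:156200769-156201068 and holds 3 that overlap. *Cxcl10* lies on the minus strand at chr5:92348840-92349139 and holds 1.
Ifit1: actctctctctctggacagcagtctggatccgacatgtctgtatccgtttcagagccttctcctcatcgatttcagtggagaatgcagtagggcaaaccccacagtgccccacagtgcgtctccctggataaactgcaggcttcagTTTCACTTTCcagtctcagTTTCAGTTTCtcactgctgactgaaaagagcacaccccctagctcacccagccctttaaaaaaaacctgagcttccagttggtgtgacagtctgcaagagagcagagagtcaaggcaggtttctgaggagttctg
Isg15: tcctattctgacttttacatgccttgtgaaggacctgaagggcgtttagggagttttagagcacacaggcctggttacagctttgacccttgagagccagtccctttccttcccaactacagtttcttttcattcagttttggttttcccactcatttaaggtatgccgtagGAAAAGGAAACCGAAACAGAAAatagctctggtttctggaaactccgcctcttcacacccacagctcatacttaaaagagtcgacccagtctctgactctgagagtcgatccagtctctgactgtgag
Cxcl10: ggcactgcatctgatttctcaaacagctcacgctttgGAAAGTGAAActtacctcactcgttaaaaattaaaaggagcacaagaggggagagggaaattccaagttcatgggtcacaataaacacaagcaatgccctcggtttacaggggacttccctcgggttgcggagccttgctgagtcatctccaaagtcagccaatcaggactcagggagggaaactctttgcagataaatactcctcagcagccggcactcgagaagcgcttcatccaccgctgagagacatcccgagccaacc

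Of the 45 genes 35 had a RefSeq promoter entry, and 22 of these (62.9%) held a match to GAAANNGAAA or its reverse complement TTTCNNTTTC, compared with 346 of the 9333 tested genes that had an entry (3.71%). A match describes the letters of this window and does not show binding, and many of the genes are known for such elements. *Oasl1*, *Ifit2*, *Irf7*, and *Cxcl9* were among the 13 without a match.

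*Ifit1*, which blocks translation of viral RNA, was at 14.7, 19.2, 14.3, and 12.5 FPKM in WT diabetic mice and at 1.48, 0.908, and 0.956 FPKM in WT control mice (log2 difference 3.67, SE 0.20, adjusted p = 5.53e-06 by limma). *Isg15*, a ubiquitin-like modifier, was at 34.9, 46.0, 33.9, and 37.5 FPKM against 3.64, 5.62, and 3.44 FPKM. *Irf7*, which amplifies the interferon response, was at 39.8, 35.7, 34.2, and 37.6 FPKM against 3.93, 4.50, and 4.09 FPKM. The sensors *Oas2* and *Oasl1* were at 4.14 ± 1.34 and 6.68 ± 1.14 FPKM against 0.230 ± 0.0702 and 0.539 ± 0.242 FPKM. The chemokine *Cxcl10* was at 23.6, 23.1, 20.1, and 38.8 FPKM against 5.25, 4.45, and 5.34 FPKM, highest in diabetic mouse 4. The summed level of the list was 617 to 697 FPKM in WT diabetic mice and 158 to 182 FPKM in WT control mice, beside the macrophage sums given above, and the part of infiltrating cells was not tested.

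**Figure D5:**
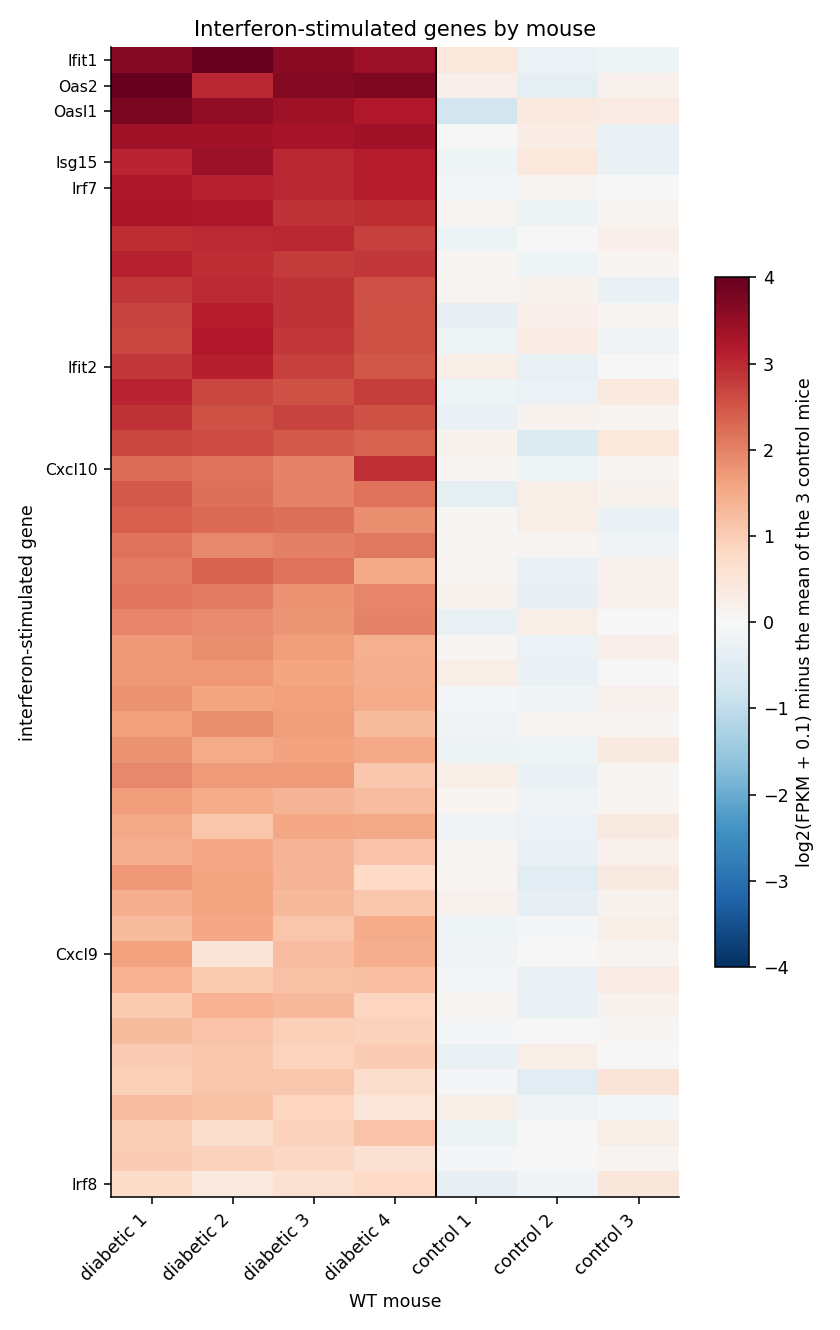
Level of each of 45 interferon-stimulated genes (rows) in each WT mouse (columns), as log2(FPKM + 0.1) minus the mean of the 3 control mice, with red above and blue below it and the genes named in the text labelled. The 4 diabetic columns are red throughout, from *Ifit1* at a log2 difference of 3.67 at the top to *Irf8* at the bottom.

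Matrix genes rose as a group. Of 20 collagen genes tested 17 were higher and 0 lower, and of 45 other matrix and myofibroblast genes 43 were higher and 1 (*Timp3*) lower. The groups hold 3 and 12 genes below 1 FPKM in every control mouse. *Col1a1* and *Col3a1*, the fibrillar collagens of scar, were at 26.8, 17.6, 20.1, and 19.0 FPKM and at 26.4, 18.9, 17.6, and 19.8 FPKM in WT diabetic mice. In WT control mice they were at 2.78, 2.54, and 3.62 FPKM and at 2.92, 3.13, and 3.90 FPKM. Their log2 differences were 2.76 (SE 0.18) and 2.60 (SE 0.16). *Col12a1*, which binds to such fibrils, was at 3.54 ± 0.729 FPKM against 0.338 ± 0.0931 FPKM. The glomerular basement membrane chains *Col4a3* and *Col4a4* did not pass. *Fn1*, fibronectin, was at 17.1, 11.02, 9.81, and 10.5 FPKM against 1.80, 1.05, and 1.57 FPKM. *Mmp2*, a gelatinase, was at 10.4 ± 3.07 FPKM against 0.827 ± 0.223 FPKM, and *Postn*, periostin of activated fibroblasts, at 2.01 ± 0.872 FPKM against 0.134 ± 0.0662 FPKM. *Tgfb1*, the cytokine that drives matrix synthesis, was at 15.6, 12.0, 13.0, and 14.3 FPKM against 5.93, 6.10, and 8.13 FPKM (log2 difference 1.03, SE 0.15).

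Plasma proteins of the acute phase rose in 14 of 20 tested and fell in 1 (*Apoh*). Of the 20, 4 were below 1 FPKM in every control mouse, *Serpina3n* and *Serpina10* among them, and the summed level of the list overlapped between the groups, at 1836 to 2482 FPKM in WT diabetic mice against 1735 to 2576 FPKM in WT control mice. *Serpina3n*, a protease inhibitor of the acute phase, was at 2.57, 2.27, 3.42, and 3.004 FPKM in WT diabetic mice and at 0.0437, 0.0879, and 0 FPKM in WT control mice. *Serpina10* was at 3.28 ± 0.652 FPKM against 0.150 ± 0.0599 FPKM. *Cp*, the copper carrier ceruloplasmin, was at 19.3, 22.2, 22.7, and 19.3 FPKM against 5.94, 4.18, and 2.38 FPKM. Of 33 lysosomal and protease genes 11 were higher and 3 lower, shares close to those of all genes. The 3 largest changes were in the cathepsins *Ctss*, at 42.8 ± 11.1 FPKM against 9.02 ± 0.920 FPKM, *Ctsc*, at 5.63 ± 0.975 FPKM against 1.37 ± 0.0843 FPKM, and *Ctsk*, at 4.04 ± 0.606 FPKM against 1.09 ± 0.422 FPKM.

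Podocyte genes were higher in 12 of 23 and lower in 0, and endothelial genes were higher in 12 of 23 and lower in 1 (*Igfbp3*). Most of these changes were small, with medians of 0.64 and 0.54 against 0.21 for all tested genes, of which 28.8% were higher. On the TPM scale 16 podocyte and 17 endothelial genes were higher. After median-ratio scaling 9 and 9 were, and after quantile normalization 8 and 9. *Nphs1*, nephrin of the slit diaphragm, was at 7.48, 3.81, 3.72, and 7.18 FPKM in WT diabetic mice and at 4.09, 2.38, and 4.94 FPKM in WT control mice. It did not pass, nor did *Wt1* or *Podxl*. *Kirrel*, a partner of nephrin, was at 5.003, 3.15, 3.22, and 3.23 FPKM against 1.40, 0.823, and 1.71 FPKM, and *Foxc1* at 8.34 ± 1.57 FPKM against 3.12 ± 0.913 FPKM. *Plce1* was at 1.15 ± 0.157 FPKM against 0.468 ± 0.151 FPKM, and its call was lost after quantile normalization. Among endothelial genes, *Cdh5*, the cadherin of endothelial junctions, was at 11.6 ± 0.426 FPKM against 5.46 ± 1.31 FPKM, the plasminogen activator *Plat* at 35.7 ± 7.94 FPKM against 15.9 ± 4.11 FPKM, and the apelin receptor *Aplnr* at 3.26 ± 0.893 FPKM against 1.29 ± 0.247 FPKM.

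In the thick ascending limb, 6 of 15 genes were higher and *Cldn10* was lower. *Cldn16* and *Cldn19*, the claudins through which magnesium and calcium are taken back, were at 13.6, 15.8, 14.2, and 19.99 FPKM and at 7.17, 15.4, 11.6, and 8.98 FPKM in WT diabetic mice. They were at 5.25 to 6.47 FPKM and at 1.95 to 3.67 FPKM in WT control mice. *Umod*, the uromodulin of this segment, was at 687, 1005, 894, and 945 FPKM against 744, 655, and 383 FPKM and did not pass, although it did on the TPM scale, after quantile normalization, and without control mouse 1.

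Further along the nephron, 4 of 20 genes of the distal convoluted and connecting tubule were higher and 0 lower. This share of rises was below the 28.8% of all tested genes. *Sgk1*, the kinase that raises sodium channel activity, was at 70.1, 112, 60.9, and 64.7 FPKM in WT diabetic mice and at 32.0, 13.2, and 20.3 FPKM in WT control mice. *Stk39*, the kinase of the salt cotransporters, was at 15.4 ± 2.30 FPKM against 6.94 ± 0.962 FPKM. The other 2 were *Scnn1a* and the calcium channel *Trpv5*, at 7.01 ± 2.73 FPKM against 2.81 ± 0.859 FPKM, whose call was lost without control mouse 2. In the list of principal cell and osmolyte genes, 8 of 18 were higher, and *Fxyd2*, the sodium pump subunit described above, was lower. *Slc5a3*, which brings in the osmolyte myo-inositol, was at 11.4, 29.0, 34.0, and 14.6 FPKM against 9.80, 4.93, and 4.25 FPKM, and *Hspa1b* at 10.95, 28.8, 33.9, and 13.3 FPKM against 5.13, 4.55, and 7.69 FPKM. The water channel *Aqp2* was at 129, 469, 292, and 194 FPKM against 89.5, 148, and 100.2 FPKM, with overlap and with the call lost without any of diabetic mice 2 and 3 and control mice 1 and 3. In *Slc5a3*, *Hspa1b*, and *Aqp2*, diabetic mice 2 and 3 were the highest, as they were in the urothelial sum, and the part of the tissue portion in this was not tested.

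Of 24 intercalated cell and acid-base genes, 5 were higher and 1 lower, both smaller shares than the 28.8% and 9.55% of all tested genes. *Slc38a3*, the glutamine carrier that feeds ammonia formation, was at 30.1, 36.3, 45.2, and 38.1 FPKM in WT diabetic mice and at 9.44, 11.3, and 1.28 FPKM in WT control mice, and *Aqp6*, an intracellular anion channel, at 30.2 ± 5.29 FPKM against 10.8 ± 0.617 FPKM. *Kit* and *Slc4a1* were among the other rises. *Car4*, the membrane-bound carbonic anhydrase, fell to 50.6 ± 3.62 FPKM from 133 ± 27.4 FPKM. In the renin-angiotensin list 8 of 18 genes were higher and 2 (*Ace* and *Agtr1a*) lower. *Agt*, the precursor of angiotensin, was at 58.8, 83.3, 93.7, and 96.6 FPKM against 26.5, 41.2, and 9.29 FPKM, while renin (*Ren1*), at 64.1, 28.9, 20.3, and 125 FPKM against 36.6, 42.4, and 70.3 FPKM, did not pass and was spread widely in the diabetic mice. *Edn1*, endothelin 1, was at 3.04, 3.11, 2.92, and 3.26 FPKM against 1.03, 0.703, and 1.22 FPKM, and its receptor *Ednrb* at 8.22 ± 1.996 FPKM against 2.73 ± 0.628 FPKM.

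Of 32 genes of ER stress and the integrated stress response 12 were higher and 0 lower, beside 28.8% and 9.55% of all tested genes. Their median log2 difference was 0.30, where that of all tested genes was 0.21. On the TPM scale 22 were higher, and 10 were after median-ratio scaling or quantile normalization. *Atf3*, a stress-induced transcription factor, was at 3.75, 4.07, 3.46, and 3.34 FPKM in WT diabetic mice and at 0.581, 0.744, and 0.775 FPKM in WT control mice, *Asns*, asparagine synthetase, at 3.74 ± 0.596 FPKM against 1.02 ± 0.264 FPKM, and *Nupr1* at 32.9 ± 8.42 FPKM against 8.001 ± 1.49 FPKM. *Ddit3* (CHOP) was at 4.91, 3.86, 4.63, and 3.94 FPKM against 1.51, 2.41, and 2.67 FPKM. Its log2 difference of 0.98 (SE 0.20) passed the test on the deposited scale, and after quantile normalization the value was 0.51 and did not. *Atf6*, at 7.60 ± 0.969 FPKM against 5.35 ± 1.29 FPKM, passed narrowly and lost the call when any single mouse but control mouse 1 was left out. The chaperone *Hspa5* (GRP78), at 260.1 ± 34.1 FPKM against 223 ± 17.0 FPKM, and *Xbp1*, at 77.1 ± 6.79 FPKM against 76.4 ± 17.8 FPKM, did not pass. Of 33 NRF2 and glutathione genes 13 were higher and 4 lower, beside 28.8% and 9.55% of all tested genes. The median of 0.18 was close to the 0.21 of all tested genes. Conversion to TPM gave 18 higher and 2 lower, and median-ratio scaling gave 11 and 6. Quantile normalization gave 14 and 2, with a median of 0.45 against -0.05 for all tested genes. The list summed to 15779 to 17329 FPKM in WT diabetic mice and to 18078 to 23925 FPKM in WT control mice. *Ephx1*, microsomal epoxide hydrolase, was at 110, 131, 110, and 147 FPKM against 13.2, 13.7, and 16.1 FPKM, *Abcc3*, an exporter of conjugates, at 2.45 ± 0.395 FPKM against 0.265 ± 0.0511 FPKM, and *Nfe2l2*, which encodes NRF2, at 57.3 ± 1.90 FPKM against 39.4 ± 3.21 FPKM. The lower genes were *Sod1*, *Sod3*, *Me1*, and *Taldo1*.

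Of 16 heat shock and metallothionein genes 6 were higher and 3 lower. The small heat shock proteins *Hspb8* and *Hspb1* were at 13.2 ± 1.66 and 46.1 ± 2.49 FPKM in WT diabetic mice against 3.47 ± 0.779 and 17.1 ± 4.73 FPKM in WT control mice. The falls were *Hspe1*, *Hspd1*, and *Hsp90ab1*. Immediate early genes were higher in 16 of 23 and lower in 0. *Fos* was at 1.73, 2.64, 2.43, and 2.71 FPKM against 0.463, 0.734, and 0.194 FPKM, and *Socs3*, the feedback inhibitor of cytokine receptors, at 3.67 ± 0.543 FPKM against 0.711 ± 0.186 FPKM. Of 18 clock genes 4 were higher, a smaller share than the 28.8% of all tested genes, and 0 lower. After median-ratio scaling or quantile normalization 0 were higher. The 4 genes were *Cry1*, *Per1*, *Wee1*, and *Clock*. *Cry1*, at 5.41 ± 2.28 FPKM against 2.20 ± 1.03 FPKM, and *Per1*, at 5.16 ± 0.727 FPKM against 2.86 ± 1.94 FPKM, overlapped between the groups and lost the call in fits without single mice. *Bhlhe40* was at 30.4 ± 4.16 FPKM against 29.7 ± 1.07 FPKM.

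In ceramide synthesis, 2 of 10 tested genes were higher and 1 lower. The share of rises was below the 28.8% of all tested genes. *Degs2*, the desaturase that also makes phytoceramide, fell to 4.79, 5.15, 5.60, and 5.18 FPKM in WT diabetic mice from 13.1, 18.9, and 19.4 FPKM in WT control mice (log2 difference -1.69, SE 0.15, adjusted p = 6.39e-05 by limma). *Cers4*, a ceramide synthase, was at 1.46, 1.23, 1.46, and 1.67 FPKM against 0.727, 0.683, and 0.849 FPKM, and its log2 difference of 0.86 (SE 0.19) passed on the deposited scale but was 0.10 after quantile normalization and did not pass. The other rise was *Sptlc2*, a subunit of the enzyme that begins the pathway. *Cers2* and *Cers5*, with log2 differences of -0.05 (SE 0.10) and 0.01 (SE 0.10), *Cers6*, at 0.47 (SE 0.20), and *Degs1*, at -0.30 (SE 0.12), did not pass. *Cers1* and *Cers3* were under the level for testing. *Cers1* was at 0.0887 ± 0.0155 FPKM in WT diabetic mice against 0.107 ± 0.0412 FPKM in WT control mice. *Cers3* was at 0.0432, 0.294, 0.551, and 0.215 FPKM in WT diabetic mice and listed at 0 in each control mouse.

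Genes of muscle, adrenal gland, and exocrine pancreas were for the most part under the level for testing. Of 15 skeletal muscle genes 2 were tested, with *Des* higher, at 6.35 ± 0.586 FPKM against 4.20 ± 1.05 FPKM, a call lost without diabetic mouse 1, and *Pvalb*, which distal tubule also makes, not passing at 12.9 ± 5.02 FPKM against 21.2 ± 6.31 FPKM. Of 13 adrenal genes only *Akr1b7* was tested and did not pass, at 2.01 ± 0.880 FPKM against 1.97 ± 0.447 FPKM. Of 15 genes of exocrine pancreas only *Cela1* was tested, and it fell to 35.1 ± 5.35 FPKM from 79.1 ± 23.1 FPKM. *Hba-a1*, a globin of red blood cells, was at 51.6, 60.7, 59.3, and 207 FPKM in WT diabetic mice and at 176, 286, and 178 FPKM in WT control mice, and it passed the test but lost the call without any of diabetic mice 1 to 3 and control mice 2 and 3. *Hbb-bs* and *Hba-a2* did not pass, with log2 differences of -1.14 (SE 0.45) and -1.38 (SE 0.50).

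The same comparison was made in *Cfb*-/- mice, 4 diabetic and 3 control, which share no mouse with the groups above. When the effect of diabetes was compared between the genotypes by the interaction term of a limma fit to all 14 mice, 0 tested genes had an adjusted p under 0.05, the smallest being 0.735, and 634 had an unadjusted p under 0.05. A difference between the genotypes was thus not detectable with these numbers of mice, which does not show that the effects were alike. The log2 differences of *Cdkn1a* were 4.34 in WT and 4.40 in *Cfb*-/- mice, those of *Siglec1* 3.52 and 3.54, those of *Cyp4a12a* -4.50 and -4.12, and those of *Slc34a1* -1.34 and -1.29. The values lay further apart for *Cyp4a14*, at 5.48 and 1.56, for *Psca*, at 5.37 and -0.13, and for *Cfd*, at 6.39 and -1.98, and none of these differences passed the test.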

How the data were processed

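Kidney RNA of 4 WT diabetic and 3 WT control mice was analysed out of 14 mice. Poly(A) libraries that keep the strand were sequenced as paired ends. For each mouse and 21878 genes, the authors deposited FPKM values, in which fragments are normalized to transcript length and sequencing depth. The submitters' processing notes name Trimmomatic, HISAT2, Cufflinks, HTSeq, and DESeq and the build GRCm38.p6, without versions or roles. The unit was read from the file headers and the values. Counts were not used here, so relative depth was taken from the steps between low values, and no interval for counting error can be given. No 2 mice had identical values.

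Genes that reached 1 FPKM in 3 or more of the 7 mice were kept (11602). limma 3.58.1 in R 4.3.3 was fitted with a mean-variance trend to log2(FPKM + 0.1) of the 7 mice, without further scaling or covariates, and p-values were adjusted over all tested genes by the Benjamini-Hochberg method. Python 3.11.15 with numpy 2.4.6, pandas 2.3.3, and matplotlib 3.10.9 was used for the rest. The fit was tested on simulated data. RefSeq tables of the same build gave positions and promoters, and 11590 of the tested genes matched. The alternatives were other pseudocounts, filters, and scalings, a fit of all 14 mice, no trend, a block of replicate numbers, and omission of each mouse.

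The genes named were the 15 largest rises and falls with an adjusted p under 0.05, groups that did not overlap, and a mean of at least 5 FPKM over the 7 mice, the 10 most abundant genes, up to 3 genes of each list, genes the study measured, and 29 genes that were chosen after their values were seen: *Gc*, *Slc34a1*, *Adipoq*, *Plin1*, *Spp1*, *Vcam1*, *Krt20*, *Upk1a*, *Phlda3*, *Gdf15*, *Ccnd1*, *Lrp2*, *Hnf4a*, *Pck1*, *Pdk4*, *Ass1*, *Acy3*, *Cyp2e1*, *Odc1*, *C1qa*, *Lyz2*, *Cd74*, *Isg15*, *Irf7*, *Nphs1*, *Umod*, *Ren1*, *Cp*, and *Fabp4*. The genes of counts of 5 or fewer and further members without values were also named after their values were seen. The lists were chosen with earlier results of these data known, so they are described by counts and medians without a test of their own. The groups were taken from the titles, diet, and disease labels. A few genes that the rule names are not reported here.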

Additional observations from a re-analysis of the deposited data

Results flagged for a closer look

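In 8 of 187 named genes, 1 of the 4 WT diabetic mice lay farther from the others than Dixon's limit allows. Chance gives such a mouse in about 1 of 20 genes, so these 8 were no more than chance would give. The genes were measured in the same 4 mice and are not independent. In diabetic mouse 1, *Ugt1a10*, *Krt19*, and *Arg2* were at 78.6, 5.84, and 5.74 FPKM, below the other diabetic mice and above every control mouse. In the same mouse, *Kirrel* and *Des* were at 5.003 and 7.22 FPKM, above the others. In diabetic mouse 4, *Ftl1* was at 3292 FPKM, *Tpt1* at 1547 FPKM, and *Hba-a1* at 207 FPKM, each above the other diabetic mice.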

How the results depend on the processing

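The pseudocount, the filter, and the scaling moved the counts of genes most. With a fold limit of 2, 787 genes were higher at a pseudocount of 1, 2258 with a filter at 0.1 FPKM, and 2209 without a filter, where 1440 were higher as reported. On the TPM scale 5808 genes were higher and 441 lower at the adjusted p (3342 and 1108 as reported), and 2438 and 129 with the fold limit. Median-ratio scaling gave 1706 lower genes. Quantile normalization gave 1732 higher and 2145 lower genes, and 656 and 365 with the fold limit, so that the excess of higher genes at the adjusted p was lost. Leaving out each mouse in turn gave 2444 to 4108 higher and 717 to 1620 lower genes at the adjusted p, with 717 without control mouse 3, and 1228 to 1615 and 189 to 272 with the fold limit.

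With the replicate number as a replicate block, 2407 genes were higher and 832 lower, and 1392 and 224 with the fold limit. Deviations of same-numbered mice correlated at 0.13, -0.02, and -0.19, so the numbers were not taken as pairs.

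Of 151 named genes that passed the test, 132 kept direction and call under all 17 alternatives, and 19 lost the call under at least 1. Many of them were named for large changes or after their values were seen, so this share does not describe all called genes. Reversals were seen among genes that did not pass, and the cause was not tested. On the TPM scale the log2 differences were *Fth1* 0.014, *Ftl1* 0.027, *Eef1a1* 0.14, *Hmgcs1* 0.079, *Atp5b* 0.057, *Rpl41* 0.11, *Rps29* 0.035, *Rplp1* 0.066, *S100a8* 0.0059, *Cers2* 0.26, *Degs1* 0.0091, *Akr1b7* 0.24, *Slc2a2* 0.061, and *Ren1* 0.27. After quantile normalization they were *Gpx3* 0.49, *Gpx1* 0.086, *Eef1a1* 0.36, *Atp5b* 0.27, *Rpl41* 0.30, *Rps29* 0.10, *Rplp1* 0.14, *Cers2* 0.12, *Cers5* -0.065, and *Ren1* 0.017. After median-ratio scaling they were *Bhlhe40* -0.12, *Xbp1* -0.11, and *Cers5* -0.13. With the replicate block they were *Bhlhe40* -0.067 and *Cers5* -0.034. Leaving out each mouse gave both signs for 10 such genes, with ranges of *Hmgcs1* -0.37 to 0.0010, *Rpl41* -0.43 to 0.042, *S100a9* -0.72 to 0.13, *S100a8* -0.95 to 0.25, *Bhlhe40* -0.067 to 0.071, *Cers2* -0.086 to 0.00997, *Akr1b7* -0.27 to 0.22, *Xbp1* -0.12 to 0.21, *Cers5* -0.034 to 0.047, and *Ren1* -0.51 to 0.36. Without counts, the precision of genes near the filter is unknown.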
